A study of Mus musculus with 12 samples.

Results

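The genes described are the 7 MHC class II genes H2-Aa, H2-Ab1, H2-Eb1, H2-DMa, H2-DMb1, Cd74 and Ciita, taken by name from the 20090 genes of a single-cell table of mouse small intestinal epithelium. All 7 were present. The table pools 27881 cells of 8 diet samples: adult mice of the strain Lgr5DTR-GFP, whose cells were sorted as CD45- and EpCAM+ after the gut had been divided into segments of equal length. That strain carries a diphtheria toxin receptor fused to GFP at the stem cell gene Lgr5. The labels name neither the diets nor how many mice a sample holds. The cells carry barcode endings 1 to 8, which the labels do not tie to samples or segments, so the endings are used here as 8 unnamed barcode sets and no diet is compared. Of the 12 samples, the 2 of total epithelium and the 2 of progenitors were left aside.

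MHC class II molecules present peptides from the endosomal compartment to CD4+ T cells. The alpha and beta chains, such as those of H2-Aa with H2-Ab1, pair in the endoplasmic reticulum with the invariant chain Cd74, which blocks the groove and guides the complex to endosomes. There the H2-DM heterodimer, made of H2-DMa and H2-DMb1, exchanges the remnant of Cd74 for a peptide. Ciita is the coactivator that binds no DNA itself and switches the set on through the RFX, CREB and NF-Y factors assembled at the X and Y boxes of the promoters. Professional antigen-presenting cells express the genes constitutively, and intestinal epithelial cells are known to express them too, in particular under interferon gamma.

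Of the genes, 5 lie within 197134 bases of chromosome 17 (GRCm38, GENCODE vM21): H2-DMa at chr17:34119541-34139101, H2-DMb1 at chr17:34153072-34160230, H2-Ab1 at chr17:34257689-34269419, H2-Aa at chr17:34282744-34287823 on the minus strand and H2-Eb1 at chr17:34305867-34316674. Ciita lies at chr16:10480059-10528418, and Cd74 lies on another chromosome. Exons of H2-DMa overlap exons of Brd2 and exons of Ciita overlap those of Dexi, in each case on the opposite strand, and no source at hand says whether the counting used strand. The levels of H2-DMa and Ciita carry that uncertainty.

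The promoter letters are shown for matches to the X and Y boxes through which Ciita acts. RefSeq windows (GRCm38.p6) were on hand for 4 of the 7 genes. The 250 bases before the start of H2-Aa (chr17:34287824-34288073, minus strand) and of H2-Eb1 (chr17:34305617-34305866, plus strand) are shown because they belong to an alpha and a beta chain, together with 30-base stretches of the H2-DMb1 promoter (chr17:34153088-34153117 and chr17:34153117-34153146, plus strand). RefSeq's start of H2-DMb1 lies downstream of the GENCODE start, so these stretches fall inside the GENCODE gene. Each runs 5′ to 3′ in the direction of the gene. Capitals mark the inverted CCAAT letters TGATTGG (Y box), the X box letters AACNGATG, or the cyclic AMP response letters TGACGTCA (X2 box), all searched on both strands.
H2-Aa: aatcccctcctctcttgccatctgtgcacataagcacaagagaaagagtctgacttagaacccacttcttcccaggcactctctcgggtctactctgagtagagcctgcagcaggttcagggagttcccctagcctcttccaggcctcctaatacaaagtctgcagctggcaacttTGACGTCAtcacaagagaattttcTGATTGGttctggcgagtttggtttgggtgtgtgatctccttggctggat
H2-Eb1: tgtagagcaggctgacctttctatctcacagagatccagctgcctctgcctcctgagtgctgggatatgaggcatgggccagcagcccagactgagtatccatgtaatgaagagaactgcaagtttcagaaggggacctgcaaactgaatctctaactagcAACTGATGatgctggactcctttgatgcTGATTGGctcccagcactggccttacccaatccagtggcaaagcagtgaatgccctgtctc
H2-DMb1, X letters: gtttacctagtAACTGATGatgctaggctg
H2-DMb1, Y letters: gattcactcagTGATTGGtctgacctgcct
The X and Y letters stood 20 bases apart in H2-Eb1 and 21 bases apart in H2-DMb1, on the strand of the gene. In H2-Aa the X2 letters ended 16 bases before the Y letters, and no exact match to the X letters was found in the window. Among 32851 promoter windows of the same length, 7.23% held the Y letters, 1.98% the X letters, 1.55% the X2 letters, and 0.146% the X and Y letters together. Neither window of H2-DMa held any of the 3. A match describes the letters only.

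Levels are given as ppm, the summed value of a gene per 1000000 of the summed values of all genes in a group of cells. The deposited values are whole numbers that are not raw counts, so depth is unknown and levels carry no counting interval. The spread given is over barcode sets holding 20 or more cells of a class. Cells of a set are not replicates and nothing is tested. After filtering, 27827 cells remained, with a median of 2219 detected genes. The classes were built without the 7 genes or the antigen presentation and interferon genes: 2847 stem-like cells (led by Bex1, Igfbp4 and Ascl2), 5002 cycling progenitor-like cells, 5448 enterocyte-like cells, 1357 goblet-like, 496 Paneth-like, 394 enteroendocrine-like and 943 tuft-like cells, and 11340 cells left unnamed. The secretory classes came almost wholly from barcode sets 4 and 7, the only sets with 20 or more goblet-like or enteroendocrine-like cells. Of 27802 distinct barcodes, 78 occurred in more than 1 set.

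Class II genes were present in crypt and villus cells alike, and stem-like cells had the highest levels of 6 of the 7, H2-Ab1 being the exception. Cd74, the invariant chain, was at 167 ppm in stem-like, 115 ppm in cycling and 139.5 ppm in enterocyte-like cells. In stem-like cells the 8 sets gave Cd74 a lowest level of 62.6, a median of 173 and a highest of 201.5 ppm. The range was 48.2 to 130.7 ppm in cycling cells and 39.0 to 217 ppm in enterocyte-like cells, so the classes overlapped, and stem-like cells were above enterocyte-like cells in 4 of 8 sets. H2-Ab1, the beta chain, was at 52.7, 36.5 and 56.4 ppm in the same order, and H2-Aa, its alpha partner, at 20.2, 14.4 and 19.3 ppm. The stem-like and enterocyte-like levels of these 2 chains did not differ in a fixed direction: H2-Ab1 was higher in enterocyte-like cells in 5 of 8 sets and H2-Aa higher in stem-like cells in 5 of 8.

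**Figure D1:**
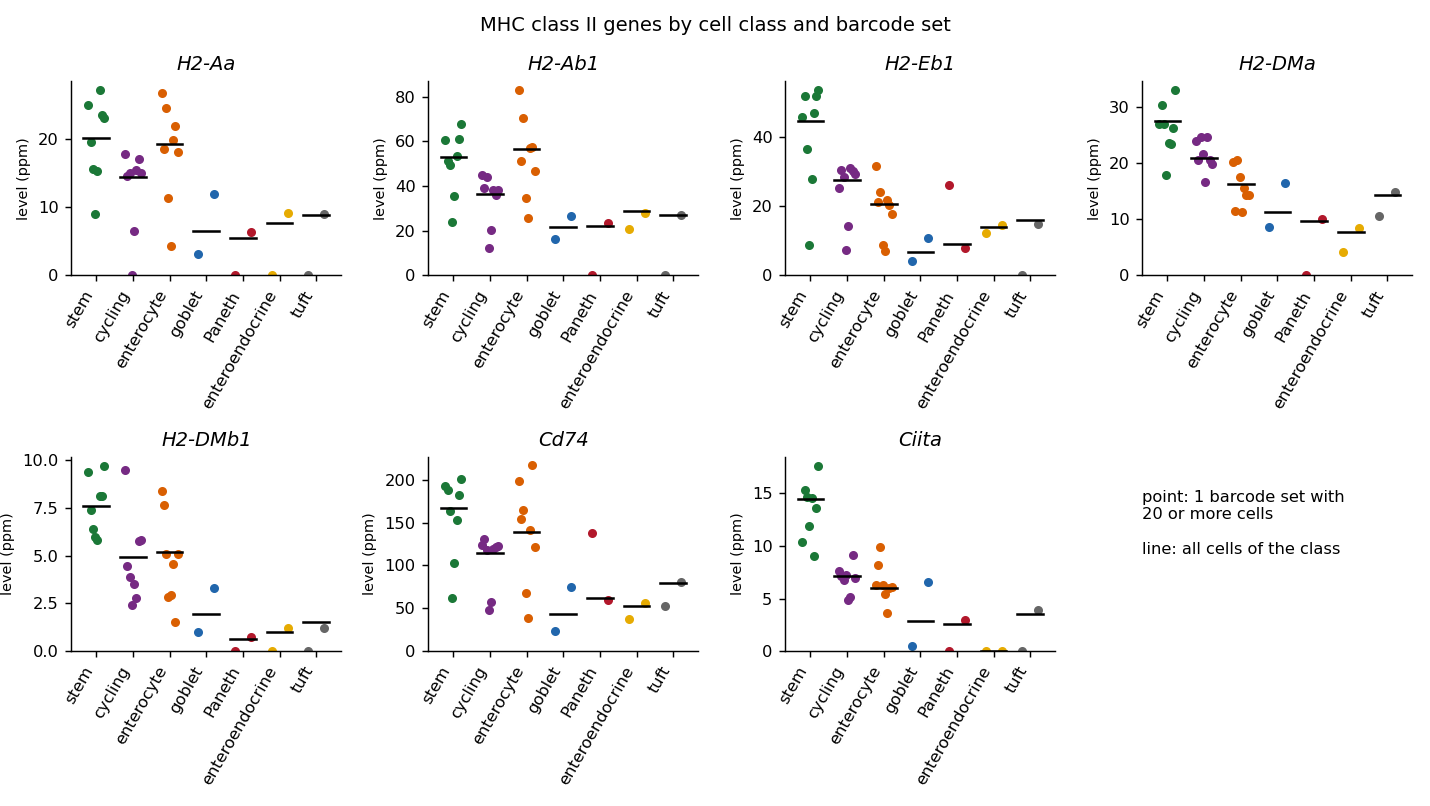
Level (ppm of the summed values of all genes) of each MHC class II gene by cell class; each point is 1 barcode set with 20 or more cells of the class and the line is the level over all cells of the class. Stem-like, cycling and enterocyte-like points overlap for Cd74, while the 4 secretory classes rest on 2 points each.

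Among the 3 main classes, H2-Eb1, H2-DMa and Ciita were highest in stem-like, lower in cycling and lowest in enterocyte-like cells, and the 4 secretory classes were lower still over all cells. H2-Eb1, a second beta chain, was at 44.7 ppm in stem-like, 27.6 in cycling and 20.7 in enterocyte-like cells, and it was higher in stem-like than in cycling cells in 8 of 8 sets and in cycling than in enterocyte-like cells in 6 of 8. H2-DMa was at 27.6, 21.0 and 16.3 ppm, and higher in cycling than in enterocyte-like cells in 8 of 8 sets. Ciita was at 14.4, 7.15 and 5.96 ppm. Its stem-like level ranged from 9.03 to 17.6 ppm over the sets and its cycling level from 4.90 to 9.12 ppm, an overlap only at the edges, and cycling cells were above enterocyte-like cells in 5 of 8 sets. H2-DMb1 was the gene with the fewest values, at 7.63, 4.92 and 5.17 ppm, with a value in 4.64% of stem-like cells (95% exact interval 3.89 to 5.47). The share was 3.51% to 6.11% over the 8 sets. All intervals given cover counting error only.

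All 7 genes had lower levels in cycling than in stem-like cells over all sets together, H2-DMa in 6 and H2-DMb1 in 7 of the 8 sets. Cd74 was lower in cycling cells by a log2 difference of -0.54, with a range over the 8 sets of -0.84 to -0.35, and H2-Aa, H2-Ab1, H2-Eb1 and Ciita were also lower in 8 of 8 sets. The differences were -0.46 for H2-Aa, -0.52 for H2-Ab1, -0.68 for H2-Eb1 and -0.92 for Ciita. None reached the 2-fold change that a call required, together with a mean of 10 ppm and the same direction in every set. Under that rule 2.54% of the 9644 genes compared were called lower in cycling cells and 3.18% higher, and 0 of the 6 members compared. The median difference was -0.53 over those 6 members and -0.03 over all genes compared.

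Secretory cells had lower Cd74 than the 3 main classes over all cells. It was at 42.9 ppm in goblet-like, 52.4 in enteroendocrine-like, 62.2 in Paneth-like and 80.0 in tuft-like cells. A value for Cd74 was present in 12.1% of goblet-like cells (95% exact interval 10.4 to 13.9) and in 32.7% of cycling cells (31.4 to 34.0), whose median detected genes were 1607 and 2948.5. In goblet-like cells the level was 23.8 ppm in set 4 and 74.8 ppm in set 7, and these 2 sets held nearly all such cells. Within a set the order did not always hold: tuft-like cells were at 52.6 ppm and cycling cells at 48.2 ppm in set 4. Ciita had no value in any of 394 enteroendocrine-like cells, which allows a share of up to 0.761% (3 cells of 394, a limit on cells with a value and not on cells that express the gene), at a median of 1469 detected genes. Cells led by the stomach surface genes Tff1, Gkn1 and Gkn2 were lower still, with Cd74 at 11.1 ppm and a value in 5.47% of 128 cells.

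Barcode sets 4 and 5 were the lowest in all 3 main classes by the sum of 3 of the genes. The summed level of H2-Aa, H2-Ab1 and Cd74 in stem-like cells was 95.3 ppm in set 4 and 153 ppm in set 5, against 228.6 to 292 ppm in the other 6 sets. In cycling cells it was 60.2 and 83.5 ppm against 173 to 187 ppm, and in enterocyte-like cells 113.5 and 68.9 ppm against 186 to 309 ppm. By this sum the 2 sets did not overlap with the other 6 in any of these classes. They were picked because they were lowest on it. How many of all genes separate the sets in this way was not counted. Set 4 held only 57 stem-like and 68 cycling cells. Cluster 6, proximal by the regional score used below, held 56.2% of the enterocyte-like cells of set 5. In the other sets it held 22.1% to 39.1%. Ciita was not the lowest in both sets in any class: in stem-like cells it was at 11.9 ppm in set 4 and 14.6 ppm in set 5, within the 9.03 to 17.6 ppm of the rest. In cycling cells it was at 7.23 ppm in set 4 and 4.90 ppm in set 5, the lowest of the 8, and in enterocyte-like cells at 6.27 and 5.47 ppm, within the 3.66 to 9.88 ppm of the rest. Which mice or diets these sets hold is not known here.

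Because the sort removed CD45+ cells, genes of leukocytes were checked beside the class II genes. The table held 6 B and plasma, 7 dendritic and macrophage, 9 T and innate lymphoid and 6 shared leukocyte markers. Ptprc, which encodes CD45, had a value in 1 of 2847 stem-like, 9 of 5002 cycling and 8 of 5448 enterocyte-like cells, while Epcam had one in 99.9% of stem-like cells. The dendritic and macrophage marker Itgax had a value in 1 stem-like and 0 enterocyte-like cells. The dendritic and macrophage markers summed to 21.6 ppm in stem-like cells (13.5 to 24.7 over the sets), mostly Itgam and Cx3cr1, to 27.1 ppm in cycling cells (16.9 to 31.7) and to 8.19 ppm in enterocyte-like cells (5.36 to 10.6). In stem-like cells C1qa was at 0 and in enterocyte-like cells Itgax and Lyz2 were. The B and plasma markers summed to 3.06 ppm in stem-like (1.81 to 4.67), 5.52 in cycling (3.27 to 7.59) and 2.03 in enterocyte-like cells (0.627 to 3.28, Mzb1 at 0). The shared leukocyte markers summed to 33.3 ppm (24.4 to 44.8), of which Lcp1 made up 31.2 ppm, to 20.6 ppm (12.1 to 34.8) and to 2.76 ppm (1.44 to 6.04) in the same order. The T and innate lymphoid markers summed to 1.17 ppm in stem-like (0 to 4.52), 26.1 in cycling (0 to 133.6) and 2.64 in enterocyte-like cells (0 to 3.55), in cycling cells mostly Gzma and Ccl5. Of these markers, Cd3g, Cd8a and Nkg7 were at 0 in stem-like cells, Trac in cycling cells, and Cd8a, Nkg7 and Gzmb in enterocyte-like cells. Without every cell that had a value for any marker of the 4 leukocyte lists, the summed level of H2-Aa, H2-Ab1 and Cd74 was 243.5 ppm in stem-like, 163 ppm in cycling and 208 ppm in enterocyte-like cells, against 240.1, 165.9 and 215 ppm with them.

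No class II gene was called between enterocyte-like and progenitor-like cells (stem-like and cycling together). Of all genes compared, 15.4% were called higher and 34.1% lower, and of the 5 members compared 0 in either direction. H2-DMa was lower in enterocyte-like cells by -0.49 (range over sets -1.01 to -0.18), and H2-Eb1 by -0.68, in 7 of 8 sets. H2-Ab1 differed by 0.40 (-0.08 to 0.95) and Cd74 by 0.06 (-0.98 to 0.62), in 6 of 8 sets each. The median of all genes compared lay at -0.47.

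Class I, type I and III interferon and microbe-linked epithelial genes were called higher more often than the 15.4% of all genes. Of the 19 class I pathway genes compared, 11 were called higher in enterocyte-like cells and 0 lower. H2-K1, a classical class I heavy chain, was at 809 ppm against 132 ppm in progenitor-like cells, and B2m, the light chain, at 925 against 277 ppm. Of 11 type I and III interferon targets 10 were called higher, among them Irf7 and Ifit1. Of 8 microbe-linked epithelial genes 5 were called higher and 0 lower: Reg3a, Reg3b, Reg3g, Saa1 and Nos2. In the interferon gamma and other class II pathway lists the counts were too small to set apart from the shares of all genes. Of 9 interferon gamma signalling genes and targets 2 were higher and 0 lower, the receptor chain Ifngr2 (184 against 64.2 ppm) and the kinase Jak2 (182 against 36.2 ppm). Of 13 other class II pathway genes 2 were higher, the endosomal protease Ctss (87.1 against 31.6 ppm) and March8, a ubiquitin ligase that acts on class II molecules (94.0 against 30.7 ppm), and 3 lower, against 34.1% of all genes called lower. These 3 were subunits of the promoter complex, Rfxap (a log2 difference of -1.11), Nfya (11.4 against 30.3 ppm) and Nfyb (16.2 against 50.4 ppm).

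The class average hid a wide spread among enterocyte-like cells. No segment label is tied to a cell, so position was estimated by a regional score, the mean log value of 8 distal genes (among them Clec2h, Cubn and Tmigd1) minus that of 8 proximal genes (among them Gsta1, Cyp2b10 and Ms4a10). Cells of each barcode set were divided by this score into 3 groups of equal size, called proximal, middle and distal. Cd74 was at 46.4 ppm in the proximal, 179 ppm in the middle and 212 ppm in the distal group. In the proximal group it was at 86.0, 19.2, 35.9, 21.7, 4.95, 56.6, 50.2 and 35.8 ppm in sets 1 to 8. In the distal group the same sets gave 288, 214, 321, 117, 87.9, 198, 278 and 184 ppm. Every distal value of Cd74 lay above every proximal value, but narrowly, with 87.9 ppm in set 5 against 86.0 ppm in set 1. H2-Aa overlapped, at 6.28 to 44.8 ppm in the distal and 0 to 15.3 ppm in the proximal group. H2-Ab1 overlapped too, at 37.3 to 110.8 and 6.40 to 45.1 ppm. How many of all genes separate the groups in this way was not counted.

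The log2 difference between the distal and proximal groups was 2.17 for Cd74 (1.73 to 3.90 over the sets), 1.59 for H2-Aa (0.75 to 2.86) and 1.46 for H2-Ab1 (0.71 to 3.44). These 3 of the 5 members compared passed the call rule, against 6.38% of all genes called higher and 9.72% lower. H2-Aa went from 9.15 to 29.5 ppm and H2-Ab1 from 28.2 to 79.3 ppm. H2-Eb1 went from 11.6 to 26.0 ppm, a difference of 1.10 that was positive in 7 of 8 sets, the exception being set 4. Without set 4 H2-Eb1 was called as well. The remaining genes differed less: H2-DMa by 0.23 (12.9 to 15.4 ppm, and by -0.05 without rescaling to the total) and Ciita by 0.38 (5.36 to 7.29 ppm), each higher in 6 of 8 sets. H2-DMb1 went from 3.39 to 7.39 ppm, higher in 8 of 8 sets but below the level needed for a call.

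The median difference was 1.46 over the 5 members compared and -0.03 over all genes. Median detected genes were 2801 in the proximal and 1848 in the distal group, and with cells matched on detected genes within each set the differences were 2.04 for Cd74, 1.60 for H2-Aa and 1.47 for H2-Ab1. Without rescaling to the total, the median of all genes moved to -0.33 and the calls over all genes from 505 higher and 769 lower to 277 higher and 1392 lower, while Cd74 stood at 1.87, H2-Aa at 1.32 and H2-Ab1 at 1.17. Leukocyte marker sums stood beside this as follows, and their part in the result was not tested: the dendritic and macrophage list was at 8.83 ppm in the proximal and 5.44 ppm in the distal group, the B and plasma list at 2.29 and 2.14 ppm, the shared leukocyte list at 3.23 and 2.43 ppm, and the T and innate lymphoid list at 2.05 and 3.89 ppm, the last being higher distally.

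The regional difference was smaller, or called for fewer genes, under 3 choices, the second and the last of them made after seeing the data. With the proximal scoring genes alone only Cd74 was called, at 1.11, and H2-Aa and H2-Ab1 differed by 0.50 and 0.28. When 3378 cells of the unnamed clusters 3 and 13, led by enterocyte genes, were added to the class, Cd74 alone was called, at 1.11, and H2-DMa differed by -0.20. Without cluster 11 Cd74 alone was called, at 2.34, and H2-Aa and H2-Ab1 kept differences of 1.52 and 1.46 but did not have the same direction in every set.

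The levels did not climb evenly along the score. With the cells of each set divided into 10 bins of equal size, bin 1 being the most proximal, the summed level of H2-Aa, H2-Ab1 and Cd74 was 34.8 and 37.4 ppm in bins 1 and 2, 143 ppm in bin 3 and 248 ppm in bin 4. From bin 5 to bin 9 it lay between 256 and 303 ppm, and it was 389 ppm in bin 10. The middle group already differed from the proximal one, with Cd74 at 1.92, H2-Ab1 at 1.23, H2-Aa at 1.14 and H2-Eb1 at 1.10, and these 4 of 5 members passed the rule against 3.78% of all genes called higher and 3.41% lower. Between the distal and middle groups 0 of 5 members did, against 0.117% of all genes called higher and 0.298% lower. The sets differed in level at the distal end: in the distal group the summed level was 136 ppm in set 5 and 168 ppm in set 4, and 286 to 466 ppm in the others.

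**Figure D2:**
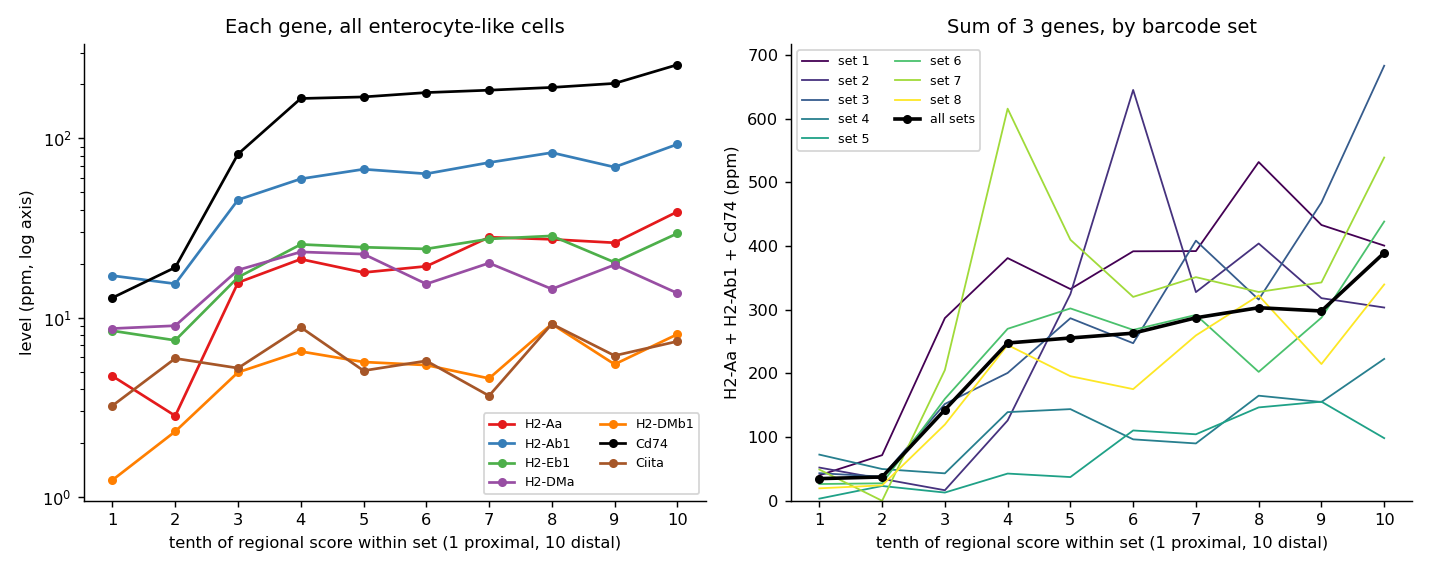
Level (ppm) of each MHC class II gene on a log axis (left) and summed level of H2-Aa, H2-Ab1 and Cd74 by barcode set on a linear axis (right), over 10 bins of the regional score within each set, 1 being the most proximal. The summed level over all sets goes from 34.8 ppm in bin 1 to 248 ppm in bin 4.

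Different clusters made up the ends of the score. Cluster 6, led by G0s2, Leap2 and Cyp2b10, held 98.5% of the cells of bin 1. Its leading genes Cyp2b10 and Gsta1 are proximal scoring genes, so its place there follows in part from the score itself. In bin 10, 38.9% were of cluster 11 and 35.9% of cluster 9, and nearly all others of cluster 10. Cluster 11, led by the amino acid and monocarboxylate transporter genes Slc7a15 and Slc5a12 with Cubn, Enpp7 and Nos2, had the highest summed level of H2-Aa, H2-Ab1 and Cd74 among clusters present in 5 or more sets, 601 ppm (208 to 1087 over the sets). Next came cluster 9, led by the ileal bile acid genes Fabp6, Slc10a2, Slc51a and Slc51b, with Saa1 and Nos2, at 327 ppm (96.3 to 558). Cluster 11 had none of these bile acid genes among its leading genes, and its leading genes Cubn and Plb1 are themselves distal scoring genes. The high score of cluster 11 therefore does not place it in the ileum.

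Cluster 10, distal by its score but led by the villus tip genes Ada, Nt5e and Apoa4, was at 96.5 ppm (43.7 to 157). Its leading genes also include the distal scoring gene Plb1. The score of cluster 10 was higher than those of clusters 9 and 11, so level and score did not run in 1 order among clusters 9, 10 and 11. Cluster 6, proximal by its score, was at 42.7 ppm (19.4 to 76.6). The unnamed cluster 8, led by Ros1, Reg1 and Adh1 and below 0 in score, was at 28.8 ppm (21.9 to 37.4). Both were below every set of the distal cluster 9. Cluster 12, unnamed and led by Gsdmc genes with Fabp6 and Car4, was at 140 ppm (62.9 to 188) with a score above 0. H2-DMa showed another order: its highest levels among these clusters were 31.5 ppm in cluster 9, 30.1 in cluster 12 and 27.6 in the stem-like cluster, with 23.6 in cluster 11.

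**Figure D3:**
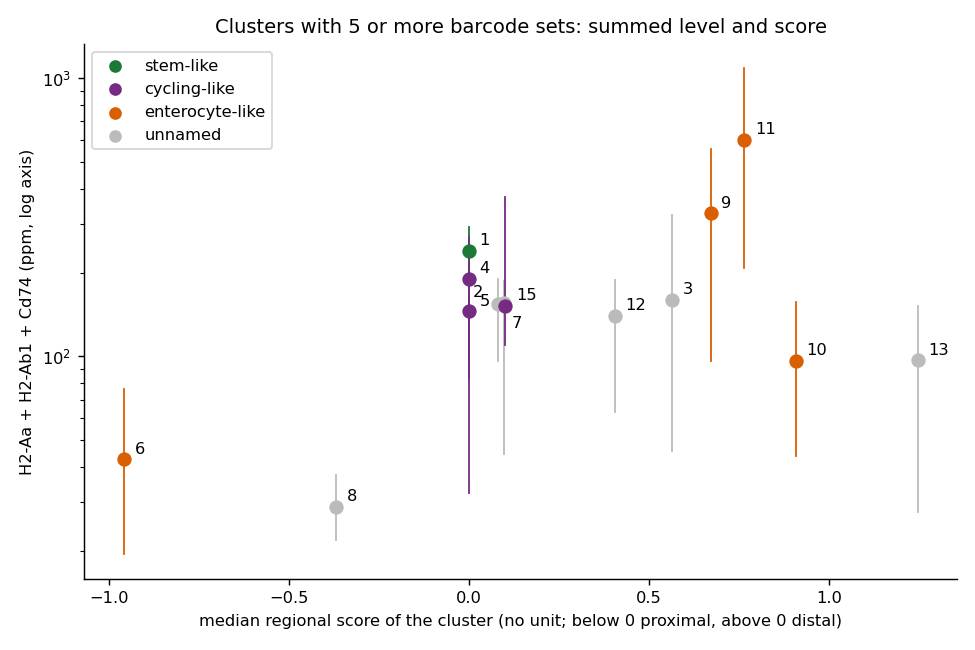
Summed level of H2-Aa, H2-Ab1 and Cd74 (ppm, log axis) against the median regional score of each cluster with 5 or more barcode sets; the point is the level over all cells and the line the range over sets. Cluster 11 is highest at 601 ppm and clusters 8 and 6 lowest at 28.8 and 42.7 ppm, while cluster 10, distal by its score, is at 96.5 ppm.

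Among the related lists, the microbe-linked genes also had members called higher distally, and the others few or none, against 6.38% of all genes called higher and 9.72% lower. Of 20 class I pathway genes compared, 0 were called higher distally and 2 lower, the immunoproteasome subunits Psmb8 (65.2 against 153 ppm) and Psmb9 (25.3 against 77.1 ppm). Of 13 other class II pathway genes 0 were higher and 1 lower, the endosomal thiol reductase Ifi30 (94.5 against 202 ppm). Of 9 interferon gamma signalling genes and targets 0 were called, and of 11 type I and III interferon targets 1, Apol9a (33.5 against 13.7 ppm). Of 9 microbe-linked epithelial genes 5 were higher distally, with a list median of 1.23: Duox2, Duoxa2, Nos2, Saa1 and Reg3g. Nos2, an inducible nitric oxide synthase, was at 177 against 22.9 ppm and Saa1, a serum amyloid A gene, at 139 against 3.08 ppm. Reg3a was lower, at 101 against 580 ppm.

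Enterocyte-like cells with inflammatory transcripts, a split chosen after seeing the data, had higher class II levels. In the 198 cells with values for at least 2 of Ubd, Ccl20 and Nos2 the summed level of H2-Aa, H2-Ab1 and Cd74 was 856 ppm, against 192 ppm in the other 5250. Only barcode sets 6 and 8 held 20 or more such cells, with 944 and 740 ppm, against 173 and 142 ppm in their other enterocyte-like cells. These cells had a median regional score of 0.95 against 0.396. Without cluster 9, the only enterocyte-like cluster with 2 or more of Nos2, Ccl20, Ubd, Duox2 and Saa1 among its 10 leading genes, the regional difference was 3.04 for Cd74, 2.32 for H2-Aa and 1.82 for H2-Ab1. Cluster 11 has Nos2 among its leading genes too, and without it, as given above, Cd74 alone was called.

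The score varied little in progenitor-like cells: 3461 of 7849 were at exactly 0 and were left out, and the median was -0.14 in the 1338 cells below 0 and 0.14 in the 3050 above. It gives no measure of position there comparable with that in enterocyte-like cells. Cells with a score above 0 had Cd74 at 144 ppm and those below 0 at 104 ppm, a difference of 0.46 that was positive in 7 of 8 sets. The dendritic and macrophage markers summed to 29.1 ppm above 0 and 20.7 ppm below, higher on the same side as Cd74. The B and plasma markers were also higher there, at 5.08 against 4.055 ppm. The shared leukocyte markers went the other way, at 21.1 ppm above 0 and 27.7 ppm below. So did the T and innate lymphoid markers, at 16.2 ppm above and 27.6 ppm below. The part of these lists was not tested. Of the 5 members compared 0 were called, against 0.135% of all genes called higher and 0.208% lower. The Cd74 difference was 0.78 in cycling cells (124 against 71.7 ppm, higher in 7 of 7 sets with enough cells) and 0.23 in stem-like cells (185.5 against 158.5 ppm, higher in 6 of 7). No member was called in either class, against 0.316% of all genes called higher and 0.369% lower in cycling cells, and 0.0104% higher and 0.052% lower in stem-like cells.

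Among stem-like cells the class II level differed with values for Gkn3 and Bex1. Stem-like cells with a value for Gkn3 had a summed level of H2-Aa, H2-Ab1 and Cd74 of 153 ppm, against 295 ppm in those without, and were lower in 7 of 7 sets. Cells with Bex1 and without Gkn3 were at 348 ppm, against 187 ppm in the other stem-like cells, and were higher in 7 of 7 sets. Those 1907 other cells include the 1048 with Gkn3, so the second split in part repeats the first. Bex1 was not compared within the cells without Gkn3. Cd74 alone was at 103 ppm with Gkn3 and 244.5 ppm with Bex1 and without Gkn3. The median detected genes were 3011.5 with Gkn3 and 2879 without. Ciita was at 11.5 ppm with Gkn3 and 16.2 ppm without. These splits were also chosen after seeing the data.

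**Figure D4:**
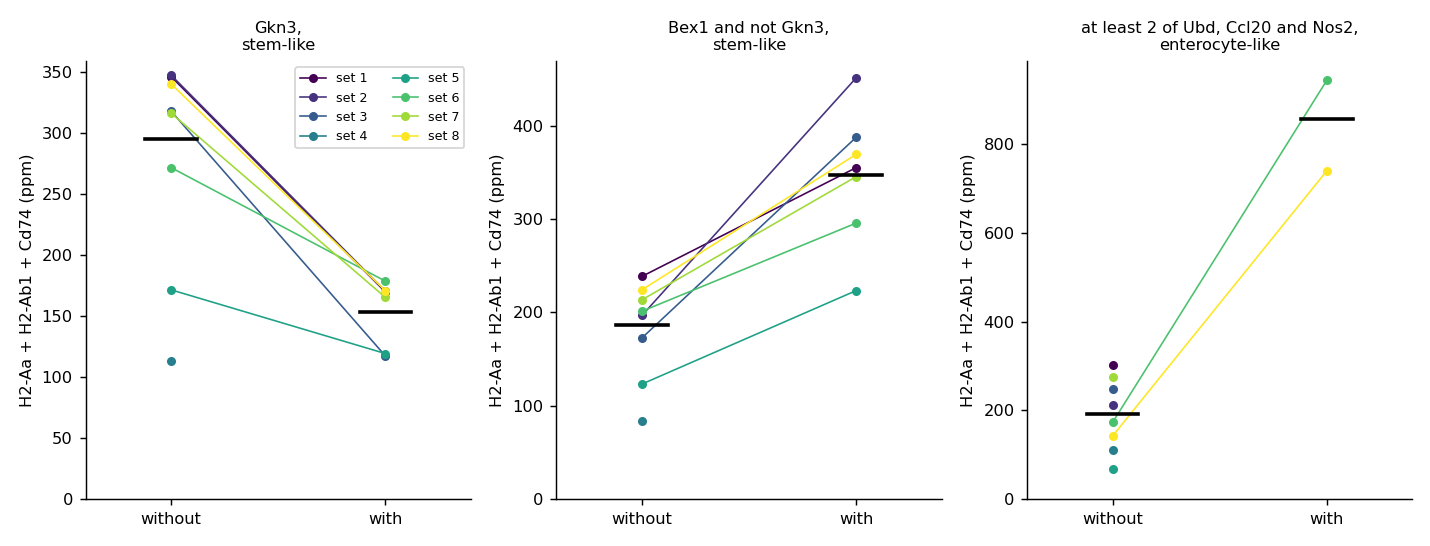
Summed level of H2-Aa, H2-Ab1 and Cd74 (ppm) in cells without and with the named genes; each point is 1 barcode set with 20 or more such cells, lines join the same set, and the black bar is the level over all cells. Levels are lower with Gkn3 in 7 of 7 sets and higher with Bex1 and without Gkn3 in 7 of 7 sets. In the Bex1 comparison the other cells include those with Gkn3.

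Members of the set tended to occur in the same cells. In enterocyte-like cells 1049 had a value for H2-Ab1 and 1419 for Cd74, and 704 had both, where independence would give 273. Within strata of barcode set and number of detected genes the ratio of observed to expected was 2.27, against 2.58 without strata. All 21 pairs had ratios above 1 within strata in stem-like, cycling and enterocyte-like cells. How many other gene pairs of like frequency lie above 1 was not counted. The strata leave out the cluster, and the summed level of H2-Aa, H2-Ab1 and Cd74 ran from 42.7 to 601 ppm over the enterocyte-like clusters. How far differences between clusters enter the ratios was not tested. The ratios ran from 1.26 to 2.42 in stem-like, from 1.58 to 3.67 in cycling and from 1.82 to 3.83 in enterocyte-like cells. In goblet-like cells, where each gene had a value in only 10 to 164 cells, 17 of 21 pairs were above 1 and 2 pairs had no cell with both. Of 427 enterocyte-like cells with H2-Aa, 69.8% also had H2-Ab1 and 80.1% had Cd74.

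**Figure D5:**
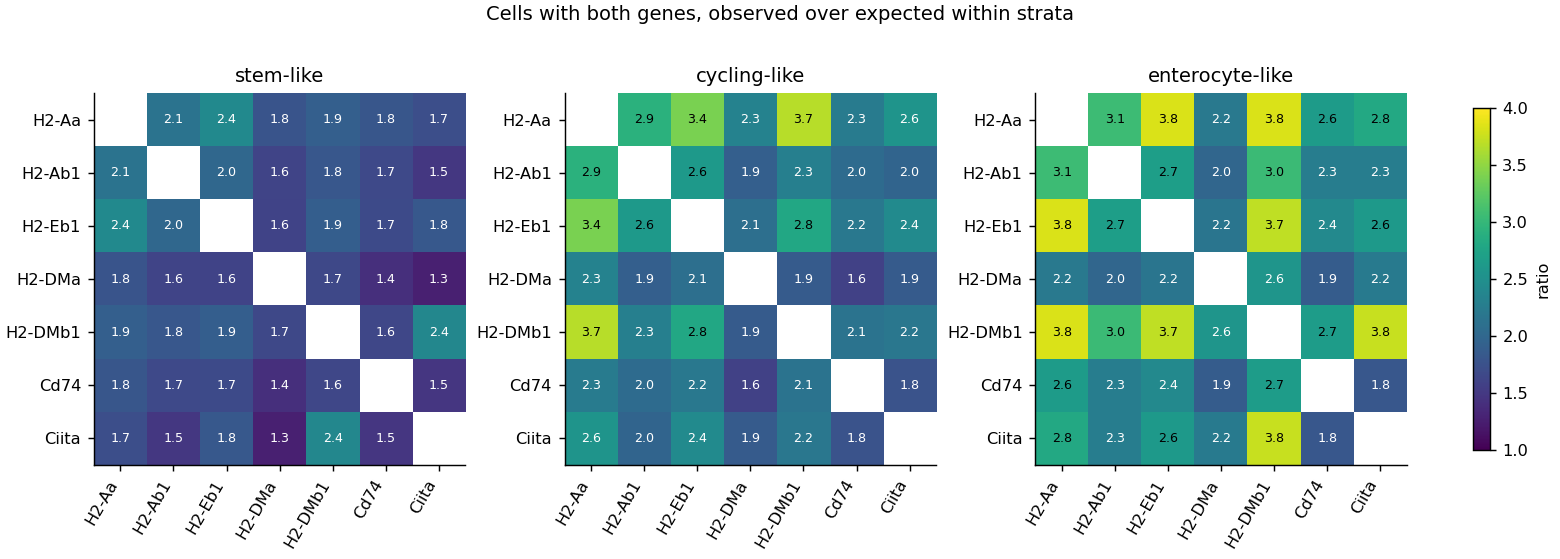
Number of cells with values for both genes over the number expected if they were independent, within strata of barcode set and 5 groups of detected genes, for each pair of MHC class II genes in 3 cell classes. Ratios are above 1 for all 21 pairs and reach 3.83 in enterocyte-like cells for H2-Aa with H2-DMb1. The strata do not include the cluster.

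Ratios of Cd74 with other antigen presentation genes were mostly near 1, but for common genes this was fixed in advance. A gene present in nearly every cell cannot give a ratio far above 1. B2m had a value in 5315 of the 5448 enterocyte-like cells and H2-K1 in 5166. The class I medians are therefore not comparable with those of the members. Among rarer genes, Nlrc5 of class I (108 cells) was at 1.38 and Rfx5 of the class II pathway (126 cells) at 0.933. In enterocyte-like cells the ratio of Cd74 with the other 6 members was 1.82 to 2.66 within strata, median 2.34. With 22 class I pathway genes its median was 1.07, the highest being H2-Q7 at 2.20, with Cd74 in 45 of its 70 cells. With 15 other class II pathway genes its median was 0.998 and its highest value 1.17. In stem-like cells the medians were 1.65 for members, 1.07 for 20 class I pathway genes and 1.02 for 15 class II pathway genes. The ratios share cells and barcode sets and are descriptions.

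Cells with a value for Ciita had higher levels of the other members. The summed level of H2-Aa, H2-Ab1 and Cd74 was 412 ppm in 246 stem-like cells with Ciita and 223 ppm in 2601 without. In cycling cells it was 401.5 against 155 ppm, and in enterocyte-like cells 611 ppm in 176 cells against 202.5 ppm in 5272. The cells with Ciita had somewhat more detected genes, 2624.5 against 2274 in enterocyte-like cells. H2-Aa was at 70.9 ppm with and 17.6 ppm without Ciita in that class, and H2-DMa at 48.2 and 15.3 ppm.

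Most cells had few of the genes. Of stem-like cells 39.1% had no member with a value, 60.9% at least 1 and 20.1% at least 3. Of enterocyte-like cells 60.6% had none and 10.3% at least 3, with median detected genes of 2218.5 in cells with none. All 7 members had values in 2 stem-like, 2 cycling and 5 enterocyte-like cells. Lcp1, the most abundant of the shared leukocyte markers, had a value in 0.757% of enterocyte-like cells with no member and 0.712% of those with 3 or more. In stem-like cells the shares were 18.1% and 19.6%, and in cycling cells 8.04% and 13.3%, so in cycling cells Lcp1 was more frequent in cells with more members. Its part in the result was not tested.

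Over the 24 groups formed by score group and barcode set in enterocyte-like cells, the genes whose level ran closest to the summed level of H2-Aa, H2-Ab1 and Cd74 were Alpk1 (Pearson's r 0.933), Smad4 (0.930) and Tcf25 (0.928), ranked among 7984 genes. Among the members outside that sum H2-Eb1 had an r of 0.877, H2-DMb1 of 0.714, H2-DMa of 0.654 and Ciita of 0.400. Over 30 groups of class and set the closest genes were Lxn (0.739), Ppp1r37 (0.716) and Ptpn23 (0.711). Groups of the same barcode set are not independent of each other, and no test was made.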

How the data were processed

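Single-cell libraries of sorted small intestinal epithelium were made with 10x 3′ chemistry and segment barcodes, per the labels' protocols, and Cell Ranger and the mm10 build are named in the submitters' processing notes. The authors deposited 1 pooled table whose unit is treated as a score: whole numbers, but with 25.3% of cells holding more values of 2 than of 1, so they are not raw counts and no count model was used. Their making is not described in the sources at hand. Cells with under 500 detected genes or over 25% mitochondrial values (2 cells) and 52 cells marked as doublets were removed. That is 0.187% of cells, too few for the doublet caller to be taken as working. Clusters were made in scanpy 1.11.5 at resolution 1 and named from marker lists. At least 3 markers had to be at 10 ppm or more and 2-fold or more above all other cells. The median of the list also had to exceed that of rival classes by a set margin, with further rules on the leading genes. Secretory clusters were divided once more. A gene was called at a mean of 10 ppm, a log2 difference of 1 with a pseudocount of 1 ppm, and the same direction in every barcode set with 20 cells of each group. This rule replaces a test, since cells are not replicates. The members, lists and markers were chosen with earlier results of these data known, and all 7 members are named with list genes that passed the rule or were among the highest of their list. Calls and co-detection were tested on simulated data. The sums of T and innate lymphoid markers leave out 1 marker that is not reported here.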

Additional observations from a re-analysis of the deposited data

How the results depend on the processing

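Under every alternative run, summed levels of H2-Aa, H2-Ab1 and Cd74 in the main classes moved by less than the spread over barcode sets. That is a loose limit, since the sets ran from 68.9 to 309 ppm in enterocyte-like cells, with a standard deviation of 84.4 ppm. A large move can therefore fall within it. Cluster 11 stood at 601 ppm against 215 ppm for all enterocyte-like cells, so the class level is lower without it. The size of that fall is not given here. Leaving out each barcode set in turn gave 230.5 to 258 ppm in stem-like, 160.5 to 177 ppm in cycling and 194 to 228 ppm in enterocyte-like cells, a distal minus proximal difference of 1.84 to 2.07, and 3 to 4 members called (4 without set 4). That difference was 1.92 and fell to 0.82 with the proximal scoring genes alone and to 1.01 with the unnamed clusters 3 and 13 added (chosen after seeing the data), each with 1 member called, as was 1 without cluster 11 (also chosen after seeing the data). The cause was not tested. Over all genes, those lower distally numbered 769, and 460 with a pseudocount of 10 ppm, 368 when matched on detected genes and 1392 without rescaling, where 277 against 505 were higher. Genes lower in enterocyte-like than progenitor-like cells numbered 3206, and 5217 with no filter on low values. In progenitor-like cells 13 genes were higher and 20 lower distally, 7 and 7 between the ends of a 3-part split of the score, and 5 and 9 with a pseudocount of 10 ppm. The co-detection ratio of H2-Ab1 with Cd74 went from 1.73 to 3.11 in stem-like and from 2.58 to 4.16 in enterocyte-like cells when a value of 2 or more was required. No paired analysis was possible because the replicate numbers of the labels are not tied to cells, and differences were taken within barcode sets instead. The secretory levels rest mainly on barcode sets 4 and 7. The highest and lowest of the 8 sets were checked for distance from the rest in 21 groups, with none beyond the limit used. That check compares 1 set with its nearest neighbour, so it does not show 2 low sets side by side, such as sets 4 and 5.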
